A study of Homo sapiens with 6 samples.

Results

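The genes described here are those of MHC class I antigen presentation, chosen by gene symbol as 10 rows of the deposited expression values out of 58174 genes in all. The 9 described are HLA.B, HLA.C, HLA.E, HLA.F, B2M, TAP1, TAP2, TAPBP and NLRC5 (dots stand for the dashes of the usual symbols). They were measured by polyA RNA-seq in A549 cells, an established human line derived from a lung adenocarcinoma, to ask how the transcriptome differs once the MIR21 gene is deleted. The Ctrl group was the parental A549 population (genomic knockout: Control) and the MIR21-KO group was A549 cells whose MIR21 locus had been cut out by Cas9 directed by a pair of guides, with 3 libraries per group. Both groups were grown in serum-containing DMEM without further treatment and harvested 48 h after seeding. MIR21-KO cells descend from single sorted cells, the number of clones behind the 3 libraries is not given, and differences between a clone and the parental population cannot be told apart from those of the deletion.

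MHC class I molecules display peptides from inside the cell to CD8 T cells and are ligands of natural killer cell receptors. A heavy chain (such as the polymorphic HLA.B and HLA.C, or the less variable HLA.E and HLA.F) pairs with the invariant light chain β2-microglobulin, encoded by B2M. Peptides cut by the proteasome are pumped into the endoplasmic reticulum by the TAP1/TAP2 transporter, where tapasin (TAPBP) bridges TAP to the empty class I molecule. NLRC5 is the transactivator of these genes and acts with DNA-bound factors at conserved promoter boxes, and interferons raise the whole set. Carcinoma cells often lose parts of this machinery.

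The libraries held between 10631667 and 14345209 reads assigned to genes, and at this depth 1 read amounted to 0.0731 to 0.0930 FPKM for a gene 1 kb long. FPKM are fragments scaled to gene length and library size, so that levels of different genes can be set side by side. MIR21 itself was listed at 0 FPKM in all 6 libraries, and since polyA libraries hardly capture so short a gene, this checks nothing about the deletion. MIR21-KO replicate 3 stood apart from the other MIR21-KO libraries: a chi-square comparison of reads over genes gave, per degree of freedom, 32.8 against replicate 1 and 11.9 against replicate 2, compared with 7.70 between replicates 1 and 2 and 2.69 to 5.30 among Ctrl libraries. Results are therefore also given without it. Keratin genes KRT8, KRT18 and KRT19 were abundant, the lung factor NKX2.1 was listed at 0, and the 8 epithelial markers summed to 1190 to 1290 FPKM in Ctrl and 776 to 1110 FPKM in MIR21-KO libraries. Of these markers, CDH1 fell from 8.18 ± 0.58 to 2.86 ± 0.15 FPKM (SD, n = 3, limma FDR 0.00018). KRT18 had means of 673 FPKM in Ctrl and 422 FPKM in MIR21-KO libraries (FDR 0.0153), KRT19 of 88.3 and 109 FPKM (FDR 0.206), and EPCAM of 1.19 and 0.695 FPKM (FDR 0.273). Leukocyte markers, 11 in all, summed to 3.92 to 4.64 FPKM in Ctrl and 3.87 to 5.87 FPKM in MIR21-KO libraries, with CD3E, CD3D and MS4A1 at 0. The sum of 7 fibroblast markers, of which COL1A2 was at 0, moved from 7.65 to 8.41 FPKM in Ctrl to 13.6 to 13.7 FPKM in MIR21-KO cells. Most of this was THY1, at 2.28 ± 0.21 and 7.15 ± 1.16 FPKM (SD, n = 3), while COL1A1 had means of 3.41 and 3.91 FPKM and LUM of 2.11 and 1.88 FPKM. The 5 endothelial markers summed to 0.0490 to 0.154 FPKM over all libraries. The part of these shifts in the results on class I genes was not tested.

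Most class I genes with enough signal for a test were higher in MIR21-KO than in parental cells. Of the 9 genes, 4 reached a mean of 0.5 FPKM and were tested, and 3 of them, HLA.E, B2M and NLRC5, rose at an FDR under 0.01 (limma on log2(FPKM + 0.1), adjusted by Benjamini-Hochberg over all 16006 tested genes), whereas 0 fell (0 also at an unadjusted p under 0.05 and with voom on recovered reads). Among all tested genes 7.66% were called higher and 8.38% lower. At an unadjusted p under 0.05 these shares were 20.7% and 22.5%, and with voom at an FDR under 0.01 they were 10.6% and 11.5%. The median log2 fold change of the 4 tested genes was 0.83, and that of all tested genes was -0.02. The same 3 genes were called without MIR21-KO replicate 1 or 3, whereas 2 were called without Ctrl replicate 2, and HLA.E alone without Ctrl replicate 1, Ctrl replicate 3 or MIR21-KO replicate 2. Calls over all tested genes also dropped in these last 4 fits. They went from 2568 to 895, 922 and 873 without Ctrl replicates 1, 2 and 3, and to 768 without MIR21-KO replicate 2. All values of MIR21-KO libraries lay above all Ctrl values for 6 of the 9 genes, those 3 plus HLA.B, HLA.C and HLA.F, against 16.8% of the 29384 genes with a read. Those 29384 include genes with too few reads to separate in this way, so 16.8% is a low background for these 9 genes. The lowest MIR21-KO and highest Ctrl libraries had 4 and 3 reads for HLA.B, and 5 and 4 reads for HLA.C. The study's methods describe its experiments as biological replicates, and the labels do not say how the 3 libraries of a group were grown, so that the p-values measure the spread between these libraries.

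**Figure D1:**
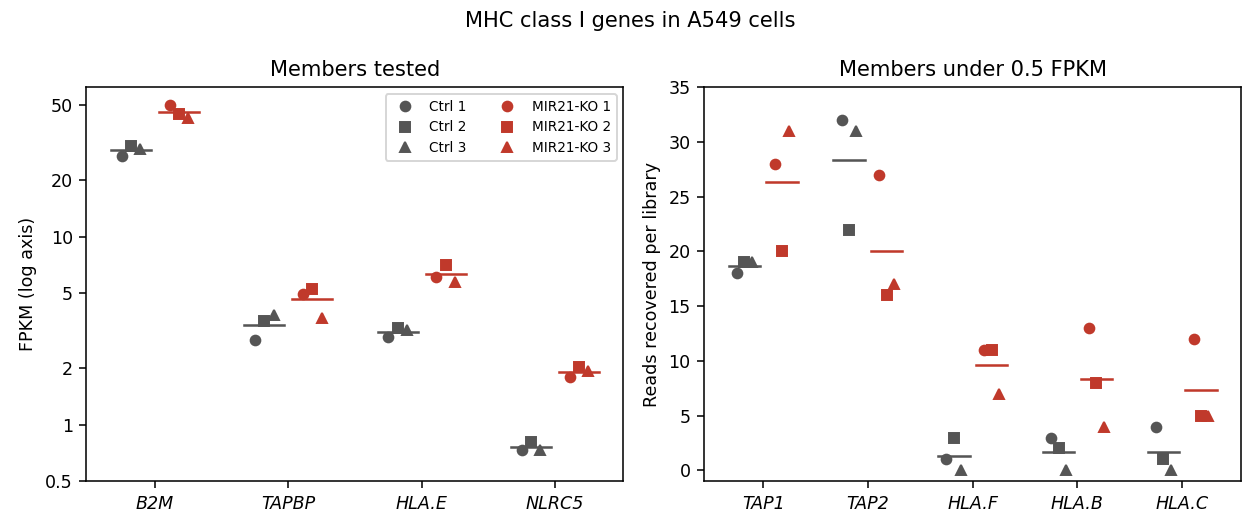
Left, FPKM on a log axis of the 4 tested class I genes, whose means reached 0.5 FPKM. Right, recovered reads of the 5 genes below that level (linear axis). Each symbol is 1 library (grey Ctrl, red MIR21-KO, shape by replicate number) and lines are group means: red lies wholly above grey for B2M, HLA.E and NLRC5, while the TAPBP groups overlap.

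HLA.E (ENSG00000204592, chr6:30489467-30494205, plus strand, GRCh38) encodes a nonclassical heavy chain that presents leader peptides of other class I molecules to the CD94/NKG2A receptor of natural killer cells. It was measured at 2.93, 3.28 and 3.17 FPKM in Ctrl and at 6.09, 7.11 and 5.75 FPKM in MIR21-KO libraries. The groups were far apart relative to their spread. The mean rose 2.02-fold, from 3.13 ± 0.18 to 6.32 ± 0.71 FPKM (SD, n = 3 per group), or by 0.99 ± 0.11 (SE) on the log2 scale, at a limma FDR of 0.0013. HLA.E stayed called whichever library was left out, with FDRs of 0.0015 to 0.0095.

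HLA.B, HLA.C and HLA.F were close to the detection limit and were not tested. HLA.B (ENSG00000234745, chr6:31269491-31357188, minus strand) had 3, 2 and 0 reads in Ctrl and 13, 8 and 4 reads in MIR21-KO libraries, the latter equal to 0.313, 0.214 and 0.101 FPKM. HLA.C (ENSG00000204525, chr6:31268749-31272130, minus strand) had 4, 1 and 0 reads in Ctrl and 12, 5 and 5 reads in MIR21-KO libraries, up to 0.351 FPKM. HLA.F (ENSG00000204642, chr6:29722775-29738528, plus strand), also nonclassical, had 1, 3 and 0 reads in Ctrl and 11, 11 and 7 reads in MIR21-KO libraries, up to 0.207 FPKM. For all 3 genes every MIR21-KO library had more reads than every Ctrl library, but on few reads. In GENCODE 29, 28.5% of the exonic bases of HLA.F and 17.8% of those of HLA.B face other genes on the opposite strand, and it is not given whether reads were counted by strand.

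Pooling the libraries of a group, reads per library size were 4.78 times higher in MIR21-KO than in Ctrl for HLA.B (95% exact interval 1.80 to 16.0), 4.21 times for HLA.C (1.56 to 14.2) and 6.94 times for HLA.F (2.44 to 27.2). These intervals cover counting error only. When the filter on low values was dropped, the 3 genes had limma FDRs of 0.169, 0.178 and 0.0859, and none was called, in a fit that called 6.16% of 29384 genes. With voom on the recovered reads of genes with a mean of at least 2 reads, which called 18.9% of 20285 genes, HLA.F had an FDR of 0.0174, HLA.B of 0.0648 and HLA.C of 0.0657. Class I heavy chain genes are close copies of each other and of several pseudogenes, and how reads that fit several of them were counted is not given in the sources used here. The levels of the heavy chains, and the near absence of HLA.B and HLA.C in particular, are uncertain for that reason. The pseudogene HLA.H was the only 1 of 9 class I pseudogenes in the list with a testable level, at 0.717, 0.679 and 0.600 FPKM in Ctrl and 1.54, 2.53 and 1.13 FPKM in MIR21-KO libraries (FDR 0.0240, not called), and 7 of the 9 were listed at 0 throughout.

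B2M (ENSG00000166710, chr15:44711487-44718877, plus strand), the light chain of every class I molecule, was the most abundant of the 9 genes. It was measured at 27.0, 30.3 and 29.4 FPKM in Ctrl and at 50.5, 45.1 and 42.8 FPKM in MIR21-KO libraries, from 1987 to 4187 reads each. The groups did not overlap. The mean rose 1.60-fold, from 28.9 ± 1.71 to 46.1 ± 3.93 FPKM, which is 0.67 ± 0.09 (SE) as a log2 fold change, at an FDR of 0.0024. Leaving out any Ctrl library, or MIR21-KO replicate 2, ends the call (FDRs of 0.0117 to 0.0161).

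In the peptide transporter, both TAP genes were expressed at under 0.6 FPKM in every library and were not tested. TAP1 (ENSG00000168394, chr6:32845209-32853978, minus strand) had 0.309, 0.386 and 0.303 FPKM in Ctrl and 0.449, 0.357 and 0.522 FPKM in MIR21-KO libraries. MIR21-KO replicate 2 lay within the Ctrl range for TAP1. TAP2 (ENSG00000204267, chr6:32821833-32838780, minus strand) had 0.393, 0.320 and 0.355 FPKM in Ctrl and 0.310, 0.205 and 0.205 FPKM in MIR21-KO libraries. It was the only one of the 9 genes whose MIR21-KO values all lay below the Ctrl values. The share of all genes separated in this direction is not given here, so this has no background to be read against.

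Pooled reads per library size gave a MIR21-KO to Ctrl ratio of 1.35 for TAP1 (95% exact interval 0.946 to 1.94) and of 0.675 for TAP2 (0.477 to 0.951). Without the filter on low values, limma gave FDRs of 0.501 for TAP1 and 0.381 for TAP2. As 32.3% of the exonic bases of TAP2 are shared with another gene annotated on the same strand (AL669918.1), its reads are uncertain. The TAP1 to TAP2 ratio within a library was 0.785, 1.21 and 0.855 in Ctrl and 1.45, 1.74 and 2.55 in MIR21-KO libraries. It was higher in each MIR21-KO library than in every Ctrl library, 1.99-fold on average, with the smallest p that an exact two-sided permutation test allows with 3 against 3 libraries (p = 0.10, also after adjustment over the 2 ratios tested).

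TAPBP (ENSG00000231925, chr6:33299694-33314387, minus strand), which encodes tapasin, was measured at 2.83, 3.55 and 3.82 FPKM in Ctrl and at 4.96, 5.27 and 3.67 FPKM in MIR21-KO libraries. The first and second MIR21-KO libraries lay above all Ctrl libraries, and replicate 3 lay within the Ctrl range. The log2 fold change was 0.43 ± 0.18 with an FDR of 0.111, and TAPBP was not called. Without MIR21-KO replicate 3 it was 0.59 with an FDR of 0.0241.

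NLRC5 (ENSG00000140853, chr16:56989485-57083531, plus strand), the class I transactivator, had the largest fold change of the 4 tested genes. Its levels were 0.736, 0.811 and 0.738 FPKM in Ctrl and 1.80, 2.02 and 1.92 FPKM in MIR21-KO libraries, from 108 to 125 and from 304 to 309 reads. Both groups were tight and far apart, and MIR21-KO replicate 3 was in the middle of its group. The mean rose 2.52-fold, from 0.761 ± 0.043 to 1.92 ± 0.11 FPKM. Its log2 fold change was 1.23 ± 0.15, at an FDR of 0.0019. The call is lost without Ctrl replicate 1 or 3 or without MIR21-KO replicate 2, with FDRs of 0.0108 to 0.0163.

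NLRC5 was also the only one of the 9 genes whose annotated 3′ UTRs hold a full match to the seed of the deleted miRNA. The mature miR-21-5p (RefSeq, GRCh38.p14, chr17:59841273-59841294, plus strand) and the matching stretches are shown, because they are the letters through which a miRNA usually finds its targets. The capitals mark the seed (bases 2 to 8) in the miRNA, and the 8mer site of NLRC5 (chr16:57083360-57083367, plus strand) and the shorter 6mer of TAP2 (chr6:32827396-32827401, minus strand) in the transcripts of GENCODE 29.
hsa-miR-21-5p: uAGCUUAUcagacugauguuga
NLRC5 site: tgccaagacaATAAGCTAggctactggg
TAP2 site: tatatcttatTAAGCTttatatctgc
The NLRC5 8mer lies in 5 of 8 distinct 3′ UTRs, and in 7 of the 10 transcripts that have one. The other 7 genes, HLA.E and B2M included, hold no 6mer in any annotated 3′ UTR. Among 11657 tested protein-coding genes with a 3′ UTR, 33.0% hold a 6mer, 12.1% a 7mer and 3.33% an 8mer in at least one 3′ UTR. A match of letters is a description, not a shown site, and TAP2, with its 6mer, had lower values in MIR21-KO libraries and was not tested.

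The order of the levels, in FPKM and thus per length, was B2M, then TAPBP and HLA.E, then NLRC5, then TAP2 and TAP1, with HLA.C, HLA.B and HLA.F last in Ctrl cells. TAPBP and HLA.E overlapped in Ctrl libraries, as did TAP2 and TAP1 and the last 3 genes. In MIR21-KO cells HLA.E stood above TAPBP and TAP1 above TAP2, each pair without overlap. By their means TAP2, HLA.C, HLA.B and HLA.F followed, and these 4 overlapped: in MIR21-KO replicate 1 both HLA.B and HLA.C lay above TAP2. MIR21-KO replicate 3 had the lowest value of its group for 6 of the 9 genes.

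RefSeq promoters were at hand for 7 of the 9 genes, not for HLA.E and NLRC5. The promoters of HLA.B, HLA.C, HLA.F and B2M are shown from 180 to 41 bases before the annotated start, because the boxes bound by the NLRC5-containing complex and by interferon regulatory factors are known from this stretch. The capitals mark an X2 box (TGACG), an inverted CCAAT box (ATTGG), the core of an interferon-response element (GAAA, 2 free bases, GAAA) and a kappaB match (GGGGA, 1 free base, TCCC), each on either strand.
HLA.B (chr6:31357220-31357359, minus strand): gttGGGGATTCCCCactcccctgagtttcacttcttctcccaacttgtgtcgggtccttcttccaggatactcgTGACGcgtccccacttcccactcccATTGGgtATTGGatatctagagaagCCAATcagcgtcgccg
HLA.C (chr6:31272133-31272272, minus strand): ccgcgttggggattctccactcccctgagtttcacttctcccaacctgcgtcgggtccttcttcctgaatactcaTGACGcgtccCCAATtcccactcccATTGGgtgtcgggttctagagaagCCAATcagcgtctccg
HLA.F (chr6:29723254-29723393, plus strand): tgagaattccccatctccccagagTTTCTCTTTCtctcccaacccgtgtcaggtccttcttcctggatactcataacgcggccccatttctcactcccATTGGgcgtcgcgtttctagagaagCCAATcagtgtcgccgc
B2M (chr15:44711337-44711476, plus strand): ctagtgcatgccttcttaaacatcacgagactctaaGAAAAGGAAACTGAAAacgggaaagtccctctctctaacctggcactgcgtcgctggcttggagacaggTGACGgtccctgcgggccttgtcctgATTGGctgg
An X2 box followed on the same strand by an inverted CCAAT box 10 to 30 bases on was found in 3 genes, HLA.B and HLA.C with 20 bases between them and B2M with 21, against 0.775% of 35116 RefSeq promoter windows of the same length. Taken singly the boxes are common, with the X2 box in 24.6% and the inverted CCAAT box in 34.6% of windows. The interferon-response core was found in 5 genes, HLA.F, B2M, TAP1, TAP2 and TAPBP, against 3.57% of windows, and in B2M, TAPBP and TAP1 it occurred as a pair of overlapping matches. The kappaB match was found in HLA.B alone, against 0.424% of windows. Only these exact letters were searched for, so a promoter without a match may still hold a variant of the same element. The genes holding these letters comprise one that was called higher (B2M), TAPBP, which was not called, and 5 that were not tested.

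**Figure D2:**
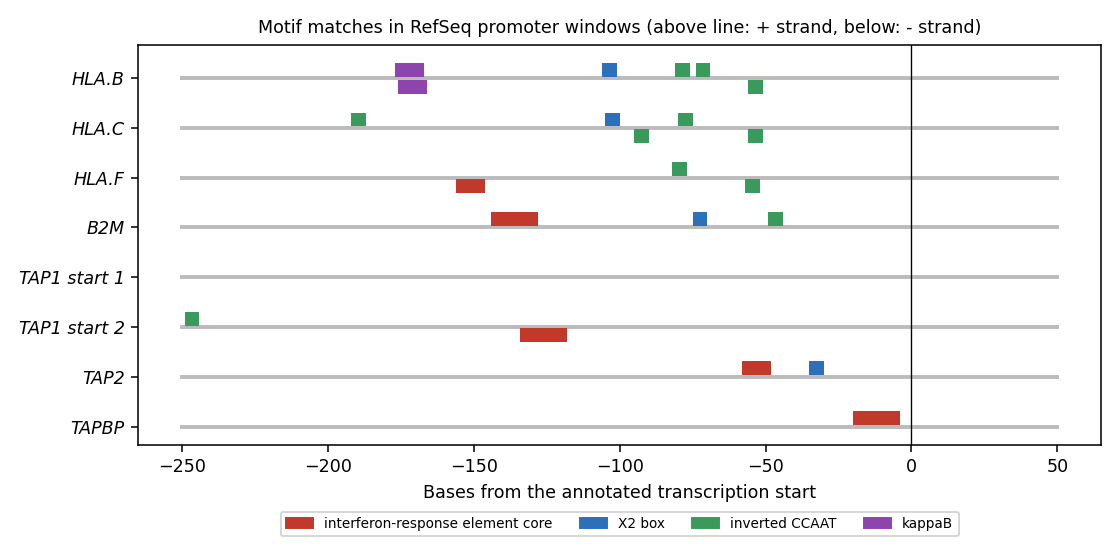
Motif matches in the RefSeq promoter windows of 7 class I genes, from 250 bases before to 50 bases after the annotated start (x axis, bases; TAP1 has a pair of starts), with matches on the gene's strand above the line and on the other strand below. The X2 box and the inverted CCAAT box lie at matching places in HLA.B and HLA.C, and interferon-response cores lie upstream of HLA.F, B2M, TAP1, TAP2 and TAPBP.

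By calls at an FDR under 0.01, other genes of the pathway were called in both directions. The lists mix genes of unlike roles, such as activators and inhibitors, so these counts cannot show whether the pathway moved together. Of the 88 genes that 7 lists hold together, 57 were tested, 3 rose and 5 fell, that is 8 calls against 16.0% called among all tested genes, a share close to the background. Without MIR21-KO replicate 3 there were 16 calls, 8 in each direction, in a fit that called 21.2% of all tested genes. At an unadjusted p under 0.05 by limma, 16 of the 57 had higher and 12 lower values, where 20.7% and 22.5% of all tested genes did. Positive log2 fold changes made up 54.4% of the 57 and 48.5% of all tested genes. By list this share was 35.7% for peptide supply, 40.0% for folding and loading, and 56.2% for regulators. It was 80.0% for interferon-gamma signalling and 71.4% for class I-like molecules. STAT2 and PROCR kept their calls whichever library was left out, whereas EZH2, NRDC, PSME3 and THOP1 lost theirs without any one Ctrl library or MIR21-KO replicate 2, TAPBPL without Ctrl replicate 1 or 2 or MIR21-KO replicate 2, and ULBP2 without Ctrl replicate 3 or MIR21-KO replicate 2 (FDRs up to 0.0298). The plot of fold changes shows the 3 called class I genes above most genes of these lists. The 5 untested class I genes, among them TAP2 with its lower MIR21-KO values, are not in it. As the genes and lists were chosen with earlier results of these data known, this is a description only.

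**Figure D3:**
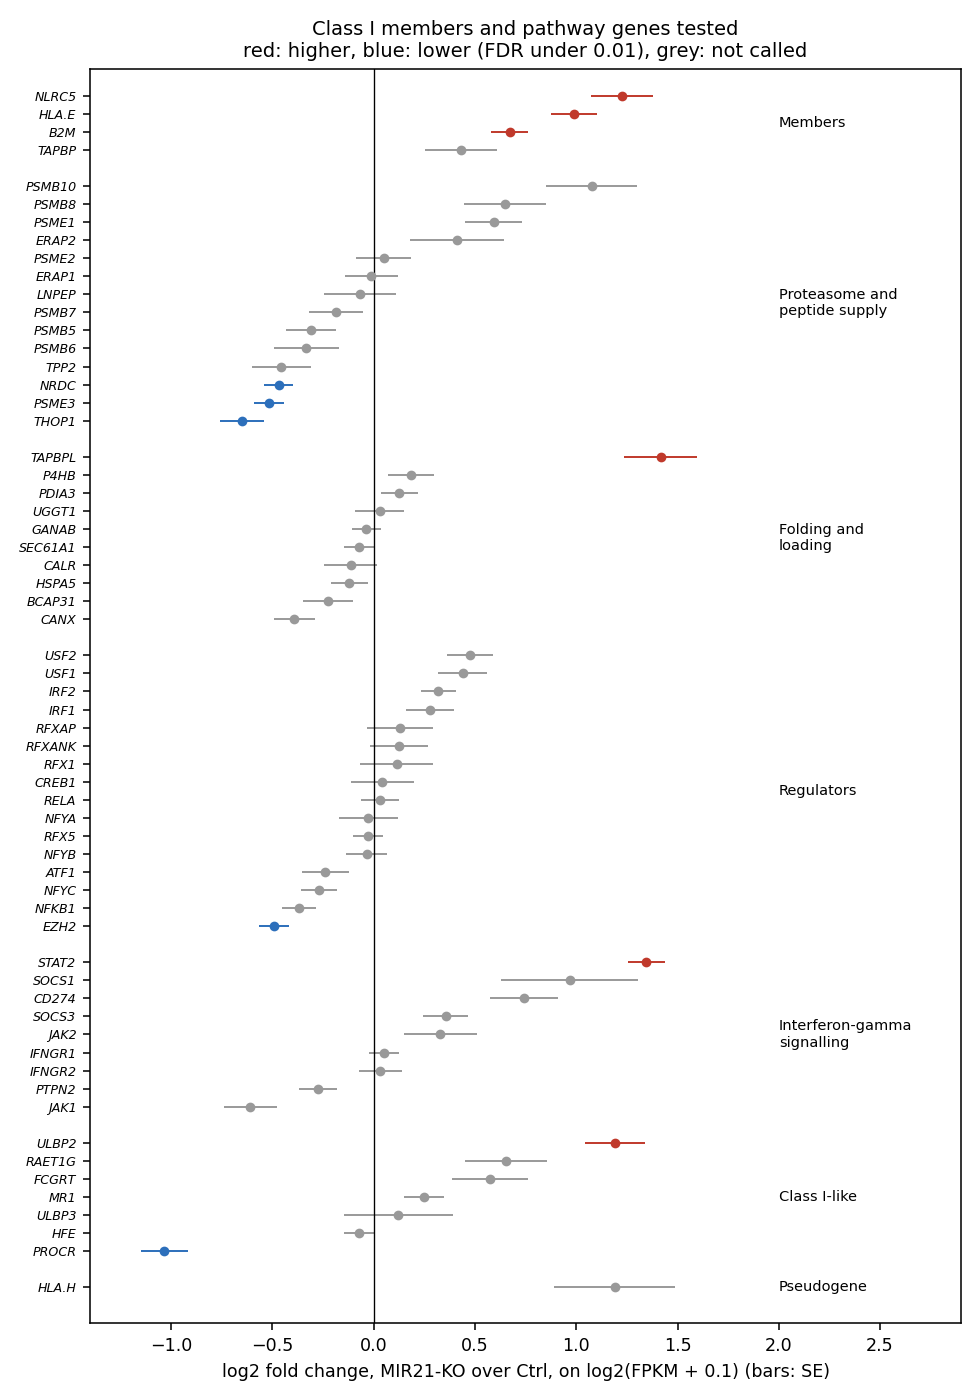
Log2 fold change of MIR21-KO over Ctrl (x axis, on the log2(FPKM + 0.1) scale) with its SE for each tested class I gene and each tested gene of the pathway lists. Red and blue points passed the FDR of 0.01 (higher and lower), grey points did not: 3 of the 4 class I genes are red, while most pathway genes are grey. IRF1 belongs to 2 lists and is drawn among the regulators.

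In the supply of peptides, 14 of 15 genes were tested, 3 fell and 0 rose by limma, with a median log2 fold change of -0.13. At an unadjusted p under 0.05 there were 3 with higher and 5 with lower values, and voom called 2 higher and 3 lower, where over all tested genes the shares were 20.7% and 22.5% at that p and 10.6% and 11.5% with voom. PSME3, the gamma subunit of the nuclear proteasome activator, fell from 75.3 ± 3.84 to 52.6 ± 1.95 FPKM (FDR 0.0031). The peptidase THOP1, which degrades cytosolic peptides, fell from 13.1 ± 1.01 to 8.31 ± 0.93 FPKM (FDR 0.0054), and the peptidase NRDC from 28.0 ± 0.96 to 20.2 ± 0.89 FPKM (FDR 0.0034).

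PSMB10, an immunoproteasome subunit, had the largest fold change among the tested genes of this list and did not pass, at 3.77, 2.51 and 3.55 FPKM in Ctrl and 8.32, 7.67 and 5.20 FPKM in MIR21-KO libraries (FDR 0.0123). Immunoproteasome subunits replace their constitutive counterparts and shift the peptides towards those that fit class I molecules. The summed FPKM of PSMB8, PSMB9 and PSMB10 over that of PSMB5, PSMB6 and PSMB7 was 0.0114, 0.0084 and 0.0113 in Ctrl and 0.0259, 0.0273 and 0.0242 in MIR21-KO libraries. Every MIR21-KO library was above every Ctrl library, 2.51-fold on average, at the smallest p the exact two-sided permutation test allows (p = 0.10, adjusted p = 0.10). Both parts of this ratio differed in their means between the groups, with no tested subunit called. The constitutive subunits had lower means in MIR21-KO than in Ctrl libraries without being called (limma FDRs of 0.1005 to 0.3246). PSMB5 had means of 128 FPKM in Ctrl and 104 FPKM in MIR21-KO libraries, PSMB6 of 161 and 130 FPKM, and PSMB7 of 129 and 114 FPKM. Most of the immunosubunit sum was PSMB10, with PSMB8 at means of 0.873 and 1.43 FPKM (FDR 0.0483, not called). In both groups the immunosubunits remained a small minority of the constitutive ones by FPKM.

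**Figure D4:**
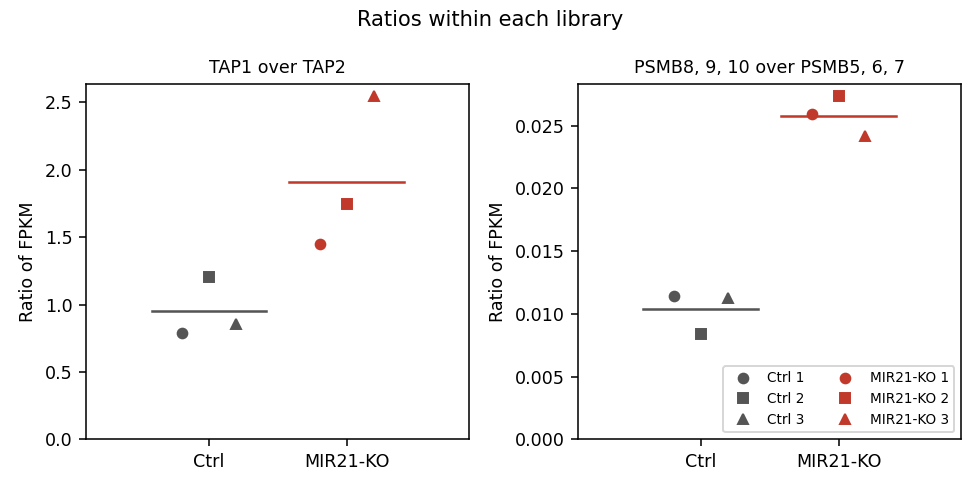
Ratios of FPKM within each library (y axes start at 0): TAP1 over TAP2, and immunoproteasome over constitutive subunits. Each symbol is 1 library and lines are group means: both ratios are higher in all MIR21-KO libraries than in any Ctrl library.

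For folding and loading, all 10 listed genes were tested and 1 rose. At an unadjusted p under 0.05 there was 1 with higher and 1 with lower values, and voom called 1 higher and 0 lower. The shares of all tested genes were 20.7% higher and 22.5% lower at that p, and 10.6% and 11.5% with voom. TAPBPL, a tapasin relative that edits the peptides of class I molecules outside the loading complex, was at 1.68, 1.66 and 2.02 FPKM in Ctrl and 6.03, 5.05 and 3.89 FPKM in MIR21-KO libraries. Its groups did not overlap, and it rose 2.80-fold (1.42 ± 0.18 on the log2 scale, FDR 0.0021). The chaperone CANX was next by size, with a log2 fold change of -0.39 that was not called (FDR 0.0275), and the list's median was -0.05.

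Among 17 transcriptional regulators of class I genes 16 were tested, and 1 was called, EZH2, the methyltransferase of Polycomb repressive complex 2, which fell from 14.0 ± 0.35 to 9.92 ± 0.56 FPKM (log2 fold change -0.49 ± 0.08, FDR 0.0039). USF2, an E-box factor, had 29.7 ± 0.39 FPKM in Ctrl and 41.6 ± 6.29 FPKM in MIR21-KO libraries (FDR 0.0210, not called). The list's median was 0.04. At an unadjusted p under 0.05, 3 regulators had higher and 3 lower values, and voom called 1 higher and 1 lower. In the list of interferon-gamma signalling, which shares IRF1 with the regulators, 10 of 11 genes were tested and 1 rose, with a median of 0.30. At an unadjusted p under 0.05, 4 of these 10 had higher and 2 lower values, and voom called 2 higher and 1 lower. The shares over all tested genes are those given above for the supply of peptides. STAT2, a transcription factor of type I interferon signalling, was at 3.66, 3.41 and 3.83 FPKM in Ctrl and 9.08, 10.1 and 9.04 FPKM in MIR21-KO libraries (log2 fold change 1.35 ± 0.09, FDR 0.0002). The feedback inhibitor SOCS1 had the next largest fold change among the tested genes, 0.97 ± 0.34, on 5 to 25 reads per library (FDR 0.0714, not called). IRF1, an activator of class I promoters, had a log2 fold change of 0.28 (FDR 0.124) and is named here beyond the rule, after its value was seen.

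Of 15 class I-like molecules and ligands of natural killer cell receptors, 7 were tested, 1 rose and 1 fell, with a median of 0.25. At an unadjusted p under 0.05, 4 of the 7 had higher and 1 lower values, and voom called 1 higher and 1 lower. Over all tested genes the shares higher and lower were 20.7% and 22.5% at that p, and 10.6% and 11.5% with voom. ULBP2, a ligand of the activating receptor NKG2D, rose from 1.62 ± 0.24 to 3.81 ± 0.30 FPKM (FDR 0.0018). PROCR, the class I-like endothelial protein C receptor, fell from 47.2 ± 1.48 to 23.2 ± 3.39 FPKM (FDR 0.0012). HLA.G and AZGP1 were listed at 0 in all libraries.

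MHC class II genes, which present peptides of extracellular origin and are controlled by CIITA, had few or no reads. HLA.DMA had 4, 3 and 2 reads in Ctrl and 6, 3 and 4 reads in MIR21-KO libraries. None of 12 reached the level for a test, 8 were listed at 0 throughout, and no gene of the list had more than 9 reads in any library. A listed 0 is weak evidence in this table, as all 37 mitochondrial genes, which every cell expresses, are listed at 0 as well.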

How the data were processed

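PolyA RNA-seq data of 3 Ctrl and 3 MIR21-KO libraries of A549 cells were analysed, with groups and replicate numbers from the sample titles. Per the labels, strand-specific libraries of oligo(dT)-enriched RNA were sequenced on an Illumina HiSeq. The submitters' processing notes list cutadapt 1.14, HISAT2 2.1.0, SAMtools 1.5, featureCounts 1.5.3, edgeR 3.18.1 and hg38. The annotation release, the strand setting and the handling of reads fitting several genes are not given in the sources used here. The authors deposited gene lengths and FPKM per library. Columns with their own fold changes, p-values and FDRs were not used. Multiplied by length, the deposited FPKM are whole multiples of 1 step in each library, and reads were recovered from them for 100% of values (tolerance 0.01). Sizes implied by the step were 0.950 to 1.03 times the sums of reads. A count of 3 reads on a gene of 1 kb equals 0.219 to 0.279 FPKM.

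Genes averaging 0.5 FPKM or more over the 6 libraries entered a fit on log2(FPKM + 0.1) by limma 3.58.1 (R 4.3.3, eBayes with trend and robust fitting, two-sided), and were called at an FDR under 0.01. Fold changes on this scale understate those of low genes. Ratios were tested by exact permutation. Coordinates and 3′ UTRs came from GENCODE 29, whose exon length equals the listed length for 95.8% of matched genes but not for B2M and TAP1, and promoters and the miRNA from RefSeq. Named were the class I genes and, per pathway list, the called genes and the 2 largest fold changes. The genes and lists were chosen with earlier results of these data known. Other pseudocounts, filters, scalings, an FDR of 0.05, limma without trend, voom on recovered reads, a replicate block and leaving out each library were tried as alternatives. Voom with a minimum of 2 reads and removal of trends on GC content and length (lowess span 0.3) were chosen after seeing the data. The procedure was tested on simulated data. Figures were drawn with matplotlib 3.10.9. One of the 10 class I genes, a ratio that needs it, 1 pathway gene and 1 marker are not reported here.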

Additional observations from a re-analysis of the deposited data

How the results depend on the processing

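The class I genes called numbered 3 as reported and 3 under other pseudocounts, scalings, no filter, an FDR of 0.05, limma without trend and voom. A minimum of 5 FPKM left 1 gene tested, B2M, which was called. Leaving out single libraries gave 1 to 3 calls (1 without Ctrl replicate 1, Ctrl replicate 3 or MIR21-KO replicate 2, and 2 without Ctrl replicate 2), and HLA.E was called each time. No alternative reversed a tested gene. Replicate numbers did not pair the libraries (correlations of deviations -0.17, -0.02 and -0.02), and with the replicate block 0 class I genes were called (3 at an unadjusted p under 0.05, FDRs 0.0102 to 0.0203 for HLA.E, NLRC5 and B2M), 2 pathway genes and 651 genes in all. In the main fit 20.7% of all tested genes were higher and 22.5% lower at that p. The shares under the replicate block are not given here. Removing GC and length trends gave 3 class I genes, 20 pathway genes and 3959 in all, and together with the replicate block 1 class I gene, HLA.E. Over all genes 2568 were called, 5114 at an FDR of 0.05, and 768 to 3400 without single libraries (768 without MIR21-KO replicate 2, and 895, 922 and 873 without Ctrl replicates 1, 2 and 3). Pathway calls numbered 8 of 57 tested, but 5 without trend, 13 with voom, 14 of 66 with voom at a minimum of 2 reads, 21 at an FDR of 0.05, and 2 to 16 without single libraries. Calls over all genes changed in the same directions. They numbered 2568 of 16006 as reported, 1946 without trend and 3525 with voom. With voom at a minimum of 2 reads they numbered 3844 of 20285, and at an FDR of 0.05 5114 of 16006. The log2 differences of the ratios were 0.996 for TAP1 over TAP2 (0.77 to 1.18 without single libraries) and 1.33 for the proteasome (1.18 to 1.40). The replicate block cannot change them, since a mean of paired differences equals the difference of the means. Depth limits HLA.B, HLA.C and HLA.F to intervals spanning several-fold, and without a filter or with voom from 2 reads 0 of them were called (3 at an unadjusted p under 0.05 by either). The share of all genes at that p in these fits is not given here, so the count of 3 has no background to be read against.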

Other observations

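Some further genes of the lists, chosen after their values were seen, did not pass the FDR of 0.01 or were not tested. CD274, which encodes the T cell inhibitory ligand PD-L1, was at 1.88 ± 0.13 FPKM in Ctrl and 3.25 ± 0.68 FPKM in MIR21-KO libraries (SD, n = 3), with a limma FDR of 0.0163. PSME1, a subunit of the interferon-inducible proteasome activator, was at 88.0, 91.0 and 92.2 FPKM in Ctrl and 160, 144 and 110 FPKM in MIR21-KO libraries (FDR 0.0206), whereas its partner subunit PSME2 had 38.3 ± 1.80 and 40.1 ± 7.05 FPKM (FDR 0.812). PSMB9, the immunosubunit gene that neighbours TAP1, had 1, 10 and 7 reads in Ctrl and 25, 20 and 19 reads in MIR21-KO libraries and was not tested. IRF9, the partner of STAT2, had 10, 14 and 16 reads in Ctrl and 38, 24 and 33 reads in MIR21-KO libraries and was not tested either. Lower values that did not pass were those of the kinase JAK1, at 43.0 ± 3.29 FPKM in Ctrl and 28.4 ± 4.74 FPKM in MIR21-KO libraries (limma FDR 0.0141), of NFKB1, at 9.96 ± 0.67 and 7.68 ± 0.34 FPKM (FDR 0.0172), of the peptidase TPP2, at 6.36 ± 0.31 and 4.67 ± 0.91 FPKM (FDR 0.0563), and of the phosphatase PTPN2, at 4.82 ± 0.28 and 3.96 ± 0.10 FPKM (FDR 0.0618).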
